A study of Homo sapiens with 24 samples.

Results

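The genes described here are 3 FOXO transcription factors, FOXO1, FOXO3 and FOXO4, and 7 genes known as FOXO targets: PIK3IP1, CCNG2, SESN3, BCL6, TXNIP, KLF6 and RBL2. They were taken by symbol from a table of RNA-seq read counts, which held all 10 of them among 23368 genes. Of the 10, 9 were among the 13947 genes that passed a filter on low counts and were tested, and SESN3 was not. The cells were AGS, an established human gastric adenocarcinoma line with the genotype given as WT, so all values are of 1 cell line. Each of 6 groups had 4 biological replicates, taken after 24 h. The groups were an untreated control, PI103 at 0.7 µM, PD0325901 at 0.035 µM, (5Z)-7-oxozeaenol at 0.5 µM, and PI103 combined with either of the other agents, each then at 50% of its single-agent concentration. Whether the untreated cells were given a vehicle is not in the labels. PI103 inhibits class I PI3 kinases and mTOR, PD0325901 inhibits MEK, and (5Z)-7-oxozeaenol, called oxozeaenol from here on, inhibits TAK1.

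FOXO proteins are forkhead transcription factors that growth factor signals hold back. AKT and the related SGK kinases, which act below PI3 kinase, phosphorylate them, after which 14-3-3 proteins bind them and they leave the nucleus. When that signal falls, FOXO proteins enter the nucleus and switch on genes of cell-cycle arrest, apoptosis, stress defence and feedback on growth signalling, several of which raise receptors or restrain PI3 kinase itself. ERK and the stress-activated kinases also phosphorylate FOXO proteins. Since this control acts on the protein, mRNA levels of the factors do not show how active they are.

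Gene counts per library ran from 38057638 to 84226380. Levels are given as CPM, counts scaled to a common library size after TMM, and a gene was called at an adjusted p under 0.05 by the edgeR quasi-likelihood test, adjusted over all tested genes by the Benjamini-Hochberg method. The 7 epithelial markers (keratins, EPCAM and CDH1 among them) all averaged at least 1 CPM and summed to between 5075 and 7953 CPM. Of 6 markers of differentiated stomach cells, 5 were in the table and GKN1 had no counts. This list, nearly all of it TFF1, summed to 12.4 to 16.6 CPM in control and to 4.05 to 8.15 CPM in the 3 groups with PI103. TFF1 and CLDN18 were called lower there. TFF2, the other marker of this list that was tested, was called higher with PI103 as a single agent, but did not exceed 0.275 CPM in any library. The part of the list in the results was not tested. The 5 leukocyte markers summed to 38.7 to 49.3 CPM in control and to 188 to 468 CPM in treated libraries, nearly all of it LYZ (37.7 to 466 CPM), whereas PTPRC did not exceed 0.101 CPM. The fibroblast list was likewise carried by COL1A1 (7.93 to 34.2 CPM), and the endothelial list summed to at most 0.437 CPM. In such bulk libraries fewer cells of a type and less RNA per cell cannot be told apart. The part of LYZ-expressing or COL1A1-expressing cells in the results was not tested. DUSP6, a phosphatase gene switched on by ERK, fell from 132 ± 13.4 CPM in control to 3.60 ± 1.33 CPM with PD0325901, 22.5 ± 9.22 CPM with oxozeaenol and 49.0 ± 5.89 CPM with PI103 (SD, n = 4 each), and was called lower with both combinations too.

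Promoter sequence shows which members carry the forkhead core near a start site, and sequences were therefore read from RefSeq windows (GRCh38.p14) of 250 bases before to 50 after each start. All 10 members were matched, with 17 windows between them. Both strands were searched for the motif GTAAACA, which reads TGTTTAC on the other strand, for the variant ATAAACA, which reads TGTTTAT there, and for CAAAACAA. These 3 motifs do not contain one another. At least 1 of them lay in a window of 5 of the 10 members, against 10.7% of 27305 genes with windows. GTAAACA itself was in a window of 3 members, against 4.19% of those genes and 3.42% of 35116 windows. The members had more windows per gene (17 for 10 genes, against 35116 for 27305), so these shares of genes are not fully alike. FOXO3, PIK3IP1, TXNIP and RBL2 had more than 1 window each and a match in only 1 of them. A match is a run of letters, not a measured binding site. The matches are printed in 30 bases of the gene's own strand, with the motif in capitals, because these genes differ in how they moved: FOXO4, PIK3IP1 and RBL2 rose with PI103 while FOXO3 fell. They lie at chr6:108560672-108560701 on the plus strand for FOXO3, chrX:71095863-71095892 on the plus strand for FOXO4, chr22:31292454-31292483 on the minus strand for PIK3IP1 and chr16:53435607-53435636 on the plus strand for RBL2.
FOXO3: ccgagcgaaacATAAACAaacgcacgcaca
FOXO4: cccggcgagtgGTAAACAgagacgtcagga
PIK3IP1: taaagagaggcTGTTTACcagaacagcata
RBL2: gaagtacggatTGTTTATcagctgtttgac

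For TXNIP and CCNG2, the members with the largest fall and the largest rise among those above 10 CPM in control, the whole 250 bases before a start are given. The TXNIP stretch is chr1:145996580-145996829 on the minus strand and holds GTAAACA 124 to 118 bases before the start. The CCNG2 stretch is chr4:77156957-77157206 on the plus strand. None of the 3 motifs is in the CCNG2 window, which says only that these letters are not there.
TXNIP: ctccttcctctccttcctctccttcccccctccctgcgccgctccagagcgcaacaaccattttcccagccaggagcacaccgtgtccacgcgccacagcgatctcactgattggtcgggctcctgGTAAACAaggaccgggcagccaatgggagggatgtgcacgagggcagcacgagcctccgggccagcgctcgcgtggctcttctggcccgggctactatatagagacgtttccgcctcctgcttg
CCNG2: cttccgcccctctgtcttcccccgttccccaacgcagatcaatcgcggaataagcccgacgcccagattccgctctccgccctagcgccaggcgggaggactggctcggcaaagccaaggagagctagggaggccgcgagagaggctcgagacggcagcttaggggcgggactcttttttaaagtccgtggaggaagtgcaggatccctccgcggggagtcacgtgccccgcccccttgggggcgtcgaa

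Against control, some of the targets rose and others fell, BCL6 was called with no treatment, and the 3 factors did not move together. With PI103, 8 of the 9 tested members were called, 5 higher and 3 lower. In the same comparison 51.4% of all tested genes were called (26.2% higher and 25.2% lower), so that a call by itself was common. With PD0325901, 8 members were called (4 higher, 4 lower), beside 58.6% of all genes (28.7% higher, 29.9% lower). With oxozeaenol the count was 7 (2 higher, 5 lower), beside 51.9% (25.7% and 26.1%). The combination with oxozeaenol gave 5 calls (2 higher, 3 lower) beside 55.6% (27.7% and 27.9%), and the combination with PD0325901 gave 7 (4 higher, 3 lower) beside 64.8% (32.2% and 32.6%). Calls with a log2 change of at least 1 in size were made for 5 members with PI103, where 10.8% of all genes had one, for 5 with PD0325901 (16.0%) and for 3 with oxozeaenol (12.1%). In the combinations there were 3 (13.5% of all genes) when PI103 was joined by oxozeaenol and 5 (20.5%) when it was joined by PD0325901. The libraries of treated and control cells did not overlap for 8, 9, 5, 6 and 7 members in the order of these 5 comparisons, beside 48.9%, 49.0%, 42.2%, 52.6% and 56.9% of all genes. The median log2 change over the 9 members was 0.63 with PI103, -0.41 with PD0325901 and -0.52 with oxozeaenol, where the medians over all genes were 0.02, -0.02 and 0.02. These medians are of genes moving in opposite directions, and the members are therefore described one by one.

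**Figure D1:**
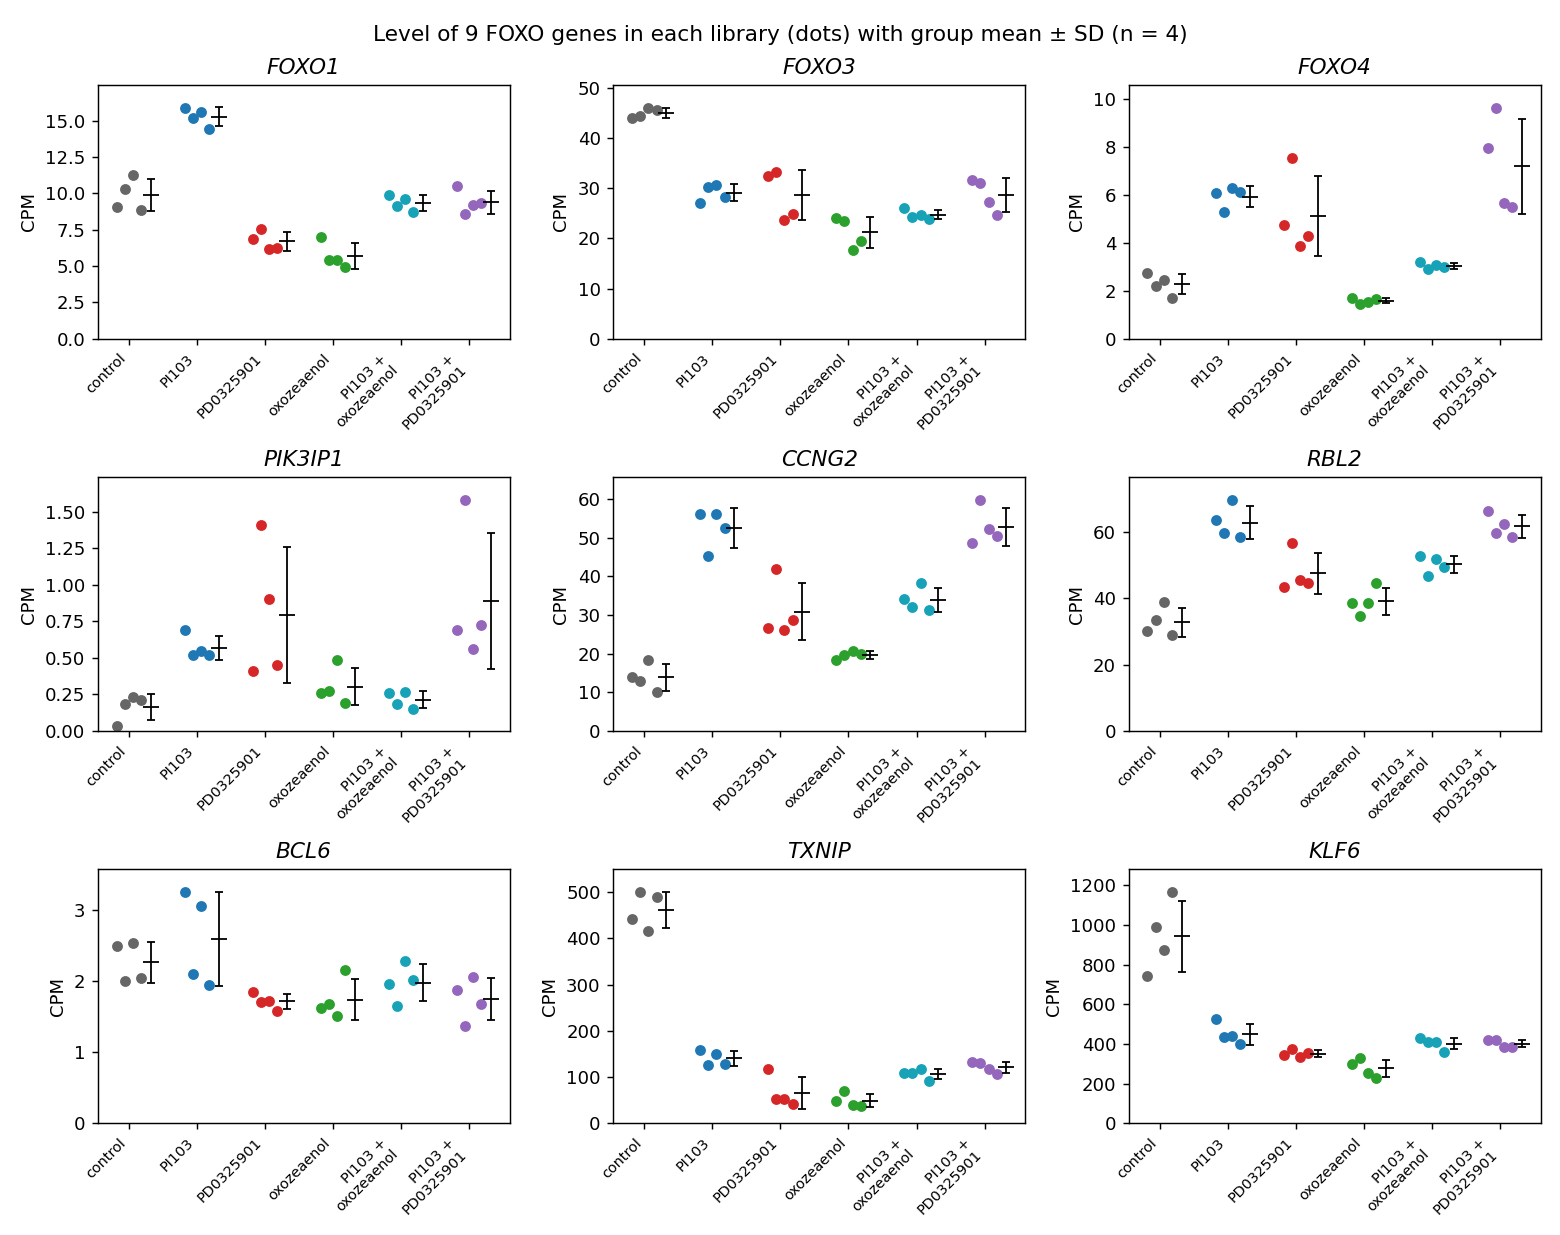
CPM (vertical axes, from 0) of the 9 tested members in the 6 groups (horizontal axes). Each dot is 1 library and the black mark is the group mean with its SD (n = 4). CCNG2 rises from 13.9 CPM in control to 52.5 CPM with PI103, while TXNIP falls from 461 to between 48.7 and 140 CPM in the treated groups.

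The forkhead factors were at unlike levels. Per kb of exon, FOXO3 was the most abundant in control at 5.82 ± 0.127 CPM per kb, followed by FOXO1 at 1.59 ± 0.180 and FOXO4 at 0.663 ± 0.126 (SD, n = 4 each). By group means FOXO3 was the highest of the 3 in all 6 groups, and FOXO1 stood above FOXO4 in 4 of them. With PI103 and PD0325901 together FOXO4, at 2.09 ± 0.571 CPM per kb, stood above FOXO1 at 1.51 ± 0.129, and with PD0325901 alone FOXO4 at 1.48 ± 0.483 stood above FOXO1 at 1.08 ± 0.104. The libraries of FOXO1 and FOXO4 overlapped in both of these groups.

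FOXO1 (chr13:40469953-40666597, minus strand on GRCh38, as are the positions of the other members), the family member best known for insulin signalling, was the only factor that rose with 1 single agent and fell with the others by the test. Its level in the 4 control libraries was 9.10, 10.3, 11.3 and 8.88 CPM. With PI103 it was 15.9, 15.2, 15.6 and 14.4 CPM, above every control library. The log2 change with PI103 was 0.63 ± 0.11 (SE), with an adjusted p of 2.0e-05. With PD0325901 the values were 6.86, 7.56, 6.18 and 6.22 CPM, and with oxozeaenol 6.99, 5.39, 5.42 and 4.97 CPM, all of them under the lowest control library. The log2 changes were -0.56 ± 0.11 (adjusted p = 7.0e-05) and -0.80 ± 0.11 (adjusted p = 1.1e-06). In both combinations FOXO1 lay within the range of control or next to it, at 8.73 to 9.90 CPM with oxozeaenol and 8.60 to 10.5 CPM with PD0325901. Neither change was called (-0.08, adjusted p = 0.54, and -0.07, adjusted p = 0.57), and the second turned to 0.0088 without control replicate 3. FOXO1 overlaps the annotated gene LINC00598 on the same strand over 4.32% of its exon length, and counts in that stretch cannot be assigned to either with certainty.

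FOXO3 (chr6:108559835-108684774, plus strand), a factor tied to oxidative stress and apoptosis, fell in every treated group. Control libraries held 43.9, 44.4, 46.0 and 45.6 CPM, a narrow spread. With PI103 the values were 27.1, 30.3, 30.7 and 28.3 CPM, with PD0325901 32.5, 33.2, 23.7 and 24.8 CPM, and with oxozeaenol 24.1, 23.5, 17.8 and 19.5 CPM. No treated library reached a control library, and the oxozeaenol group was the lowest by its mean. The log2 changes were -0.63 ± 0.11 (adjusted p = 2.3e-05) with PI103, -0.66 ± 0.11 (9.5e-06) with PD0325901 and -1.08 ± 0.11 (8.4e-09) with oxozeaenol. In the combinations they were -0.86 with oxozeaenol and -0.65 with PD0325901, both called. FOXO3 has a near-identical processed pseudogene, FOXO3B on chromosome 17, so reads shared by the pair may have been set aside or split. FOXO3B was listed at 4.25 CPM in control and was called lower with all 5 treatments as well, by -0.36 to -1.04 on the log2 scale.

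FOXO4 (chrX:71096197-71103535, plus strand), the least abundant of the factors per kb in control, rose with PI103 and with PD0325901. The control libraries held 2.74, 2.22, 2.47 and 1.72 CPM. With PI103 the level was 6.07, 5.27, 6.27 and 6.11 CPM, and with PD0325901 it was 4.76, 7.56, 3.87 and 4.28 CPM, so no library of either group overlapped control. The log2 changes were 1.38 ± 0.19 (adjusted p = 1.2e-06) and 1.16 ± 0.19 (adjusted p = 9.7e-06). With oxozeaenol FOXO4 was at 1.71, 1.46, 1.53 and 1.66 CPM, a change of -0.52 ± 0.20 (adjusted p = 0.032) that no longer passed the test without control replicate 1 or 3, or without oxozeaenol replicate 2 or 3. The combination of PI103 with PD0325901 had 7.95, 9.63, 5.67 and 5.52 CPM (log2 change 1.66 ± 0.19, adjusted p = 3.1e-08), the highest mean, with libraries that overlapped those of PI103 and of PD0325901. PI103 with oxozeaenol gave 2.92 to 3.21 CPM, a change of 0.42 ± 0.19 that was not called (adjusted p = 0.067) but was with the replicate number as a block (0.42, adjusted p = 0.047). It was also called in a fit of the compared groups alone and without control replicate 1.

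CCNG2 (chr4:77157151-77433388, plus strand), which encodes cyclin G2, an atypical cyclin linked to cell-cycle arrest and a textbook FOXO target, rose with every treatment. In control its 4 libraries held 14.0, 12.9, 18.5 and 10.04 CPM. With PI103 they held 56.1, 45.2, 56.2 and 52.4 CPM, a log2 change of 1.92 ± 0.15 or 3.78-fold (adjusted p = 1.1e-10). Of all tested genes, 98.8% had a lower log2 change with PI103 than CCNG2. With PD0325901 the values were 26.7, 41.9, 26.2 and 28.8 CPM (1.15 ± 0.15, adjusted p = 2.4e-07). With oxozeaenol they were 18.3, 19.7, 20.7 and 20.005 CPM, of which the lowest lay just under the highest control library (0.50 ± 0.15, adjusted p = 0.0054). In the combinations CCNG2 reached 31.4 to 38.3 CPM with oxozeaenol (1.29 ± 0.15) and 48.7 to 59.7 CPM with PD0325901 (1.93 ± 0.15), and both were called. By group means the order from high to low was PI103 with PD0325901, PI103, PI103 with oxozeaenol, PD0325901, oxozeaenol and control. The first pair, the middle pair and the last pair of that order overlapped in their libraries.

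RBL2 (chr16:53433977-53491649, plus strand), which encodes p130, a pocket protein that holds cells in quiescence, followed the same direction with smaller changes. Control libraries held 30.03, 33.4, 38.7 and 29.1 CPM and PI103 libraries 63.5, 59.6, 69.5 and 58.4 CPM (log2 change 0.94 ± 0.10, adjusted p = 1.6e-08). With PD0325901 the level was 43.4, 56.5, 45.6 and 44.5 CPM (0.53 ± 0.10, adjusted p = 4.3e-05), again with no overlap with control. With oxozeaenol RBL2 was at 38.4, 34.6, 38.7 and 44.6 CPM, within reach of control replicate 3. That change, 0.25 ± 0.10 (adjusted p = 0.033), was lost without control replicate 1 or 4, without oxozeaenol replicate 1, 3 or 4, without the filter on low counts and in a fit of the compared groups alone. The combinations gave 0.61 with oxozeaenol and 0.91 with PD0325901, both called. RBL2 exons overlap AKTIP and another gene on the opposite strand over 18.2% of their length, and the use of strand in counting is not given in the sources used here. AKTIP moved the other way, from 58.4 CPM in control to between 20.7 and 33.2 CPM in the treated groups.

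PIK3IP1 (chr22:31281593-31292534, minus strand), which encodes a membrane protein that restrains PI3 kinase, was the scarcest member with a test. Control libraries held only 2, 10, 19 and 16 counts, or 0.0324, 0.186, 0.232 and 0.210 CPM. With PI103 the level was 0.692, 0.520, 0.549 and 0.517 CPM and with PD0325901 0.412, 1.41, 0.903 and 0.450 CPM, all above control. The log2 changes were 1.74 ± 0.45 (adjusted p = 0.0019) and 2.22 ± 0.44 (adjusted p = 1.0e-04), with 95% intervals of 0.83 to 2.66 and 1.32 to 3.12. Without control replicate 1, the library with 2 counts, the change with PI103 was 1.43 (adjusted p = 0.0084). With oxozeaenol the values were 0.194 to 0.482 CPM and the change of 0.78 ± 0.48 was not called (adjusted p = 0.18). PI103 with oxozeaenol left PIK3IP1 at 0.151 to 0.267 CPM (0.36, adjusted p = 0.55), whereas PI103 with PD0325901 gave 0.564 to 1.58 CPM (2.38 ± 0.44, adjusted p = 3.4e-05).

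TXNIP (chr1:145992435-145996600, minus strand), which encodes an arrestin-like protein that lowers glucose uptake and binds thioredoxin, fell furthest of the members, although it is listed as a FOXO target. The control libraries held 442, 499.6, 415 and 489 CPM. PI103 libraries held 158, 126, 149 and 128 CPM, a log2 change of -1.72 ± 0.23 (adjusted p = 1.1e-06). With PD0325901 the values were 117, 52.9, 52.1 and 40.6 CPM (-2.81 ± 0.24, adjusted p = 6.7e-10) and with oxozeaenol 47.3, 70.1, 39.9 and 37.6 CPM (-3.24 ± 0.24, adjusted p = 1.9e-10). Every treated library was below every control library. With oxozeaenol only 0.294% of tested genes had a lower log2 change, and the level was 9.46-fold below control. The combinations lay at 92.0 to 116 CPM with oxozeaenol (-2.12 ± 0.23) and 106 to 132 CPM with PD0325901 (-1.93 ± 0.23), both called and both above the 4 oxozeaenol libraries.

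KLF6 (chr10:3775996-3785281, minus strand), a zinc-finger transcription factor gene that responds early to many signals, fell with every treatment. By group means it was the most abundant member per kb in control, at 154 ± 29.3 CPM per kb beside 127 ± 10.9 for TXNIP (SD, n = 4). The control libraries of KLF6 and TXNIP overlapped on that scale. Control libraries spread widely, at 742, 991, 875 and 1165 CPM. With PI103 KLF6 was at 524, 433, 439 and 399.7 CPM, with PD0325901 at 346, 373, 331 and 355 CPM, and with oxozeaenol at 299, 327, 255 and 229 CPM. No treated library reached the lowest control library. The log2 changes were -1.07 ± 0.12 (adjusted p = 3.7e-08), -1.43 ± 0.12 (1.9e-10) and -1.76 ± 0.12 (1.1e-11), and -1.23 in each combination.

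BCL6 (chr3:187721377-187745727, minus strand), which encodes a transcriptional repressor best known from germinal-centre B cells, and SESN3 (chr11:95165513-95232541, minus strand), which encodes a stress-induced restraint on mTORC1, gave little signal in these cells. BCL6 was at 2.49, 1.99, 2.53 and 2.03 CPM in control, at 1.94 to 3.24 CPM with PI103 (log2 change 0.19 ± 0.18, adjusted p = 0.38) and at 1.58 to 1.84 CPM with PD0325901 (-0.41 ± 0.18, adjusted p = 0.055). Although its PD0325901 libraries did not overlap control, the test was passed only with the replicate block (-0.40, adjusted p = 0.035), with DESeq2 and without control replicate 2 or 4. With oxozeaenol the change was -0.38 (adjusted p = 0.082), called only without oxozeaenol replicate 4. In the combinations it was -0.20 (adjusted p = 0.36) with oxozeaenol and -0.37 (adjusted p = 0.069) with PD0325901, the latter called with the block (-0.38, adjusted p = 0.039) and without replicate 3 of that combination. SESN3 had 1 count in 1 library (oxozeaenol replicate 2) and none elsewhere. A count of 0 allows up to 3 counts, or 0.0367 to 0.0851 CPM depending on the library, and no change of SESN3 could be detected at this depth.

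**Figure D2:**
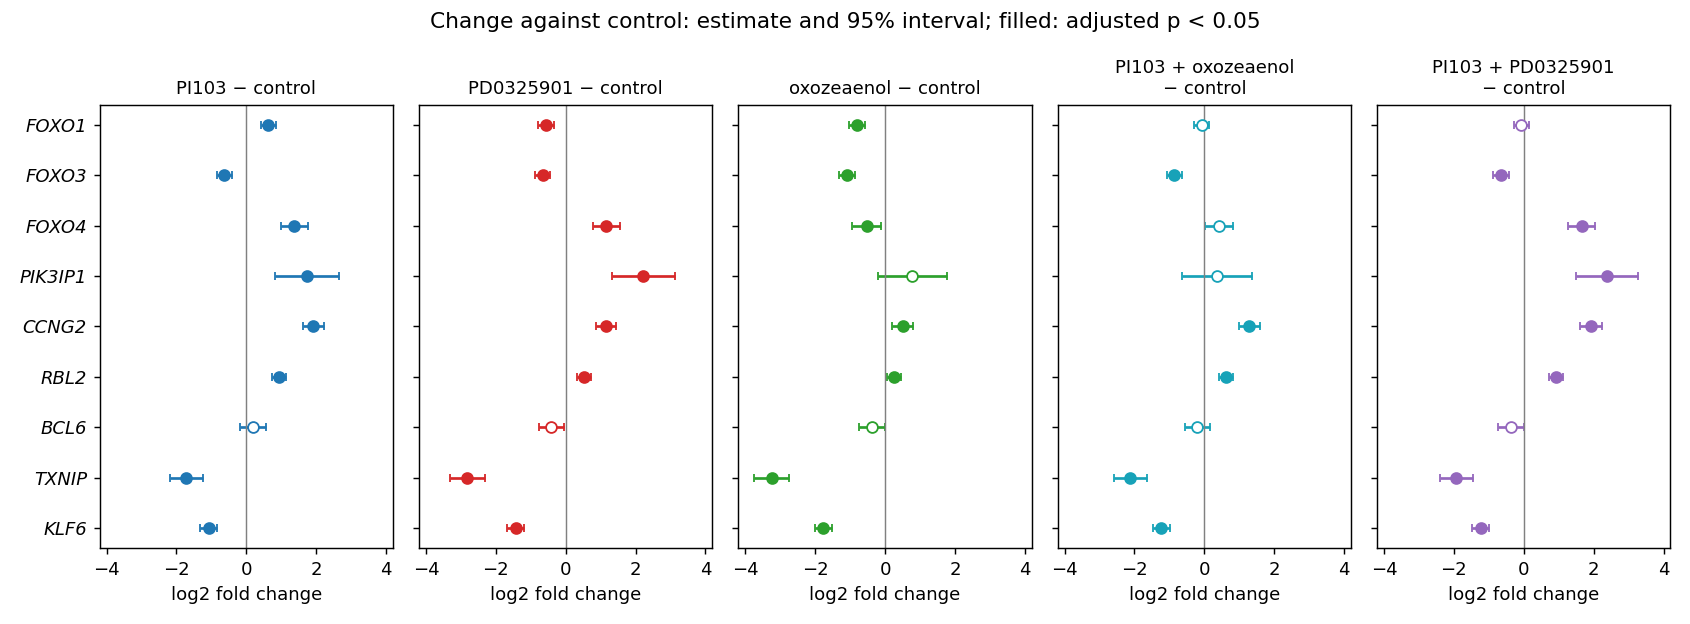
Log2 fold change against control (horizontal axes) of the 9 tested members, 1 panel per treatment. Points are estimates, bars are 95% intervals, and filled points have an adjusted p under 0.05. TXNIP, KLF6 and FOXO3 lie left of 0 in all 5 panels, CCNG2 and RBL2 right of 0, and FOXO1 changes side between PI103 and the other single agents.

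The single agents were then compared with one another, since the effect of a PI3 kinase and mTOR inhibitor on FOXO genes may differ from that of inhibitors of other kinases. Members were higher with PI103 than with oxozeaenol in all 8 of the calls made among the 9 tested, beside 43.1% of all genes called (20.6% higher). FOXO4 differed the most, by 1.90 ± 0.20 on the log2 scale (adjusted p = 3.0e-08), followed by TXNIP at 1.52 ± 0.23 (1.0e-05), FOXO1 at 1.42 ± 0.11 (1.6e-10) and CCNG2 at 1.41 ± 0.15 (2.9e-08). KLF6, RBL2, BCL6 and FOXO3 differed by 0.45 to 0.69. Those 4 largest differences were the ones of at least 1 log2 unit, beside 7.99% of all genes. PIK3IP1 was not called (0.96, adjusted p = 0.074) but was with the replicate block (1.02, adjusted p = 0.039). It was also called in a fit of the compared groups alone and without oxozeaenol replicate 3. The BCL6 difference was lost without PI103 replicate 1 or 3.

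Between PI103 and PD0325901, 6 members were called, all higher with PI103, beside 44.5% of all genes (21.7% higher). They were FOXO1 (1.19 ± 0.11, adjusted p = 1.8e-09), TXNIP (1.09 ± 0.22, adjusted p = 3.4e-04), CCNG2 (0.76 ± 0.14, adjusted p = 9.8e-05), BCL6 (0.60 ± 0.18), RBL2 (0.40 ± 0.10) and KLF6 (0.35 ± 0.12). FOXO1 and TXNIP differed by at least 1 log2 unit, beside 10.4% of all genes. FOXO1 had the largest difference among the members called, with no overlap between 14.4 to 15.9 CPM and 6.18 to 7.56 CPM. The BCL6 and KLF6 calls were lost without PI103 replicate 1, and the KLF6 call also without PD0325901 replicate 1.

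Between PD0325901 and oxozeaenol, 6 members were called, all higher with PD0325901, beside 28.5% of all genes (15.1% higher). FOXO4 was 1.68 ± 0.20 higher (adjusted p = 1.1e-06), PIK3IP1 1.44 ± 0.42 higher (adjusted p = 0.013) and CCNG2 0.65 ± 0.14 higher (adjusted p = 0.0017). FOXO3, KLF6 and RBL2 differed by 0.28 to 0.43. A difference of at least 1 log2 unit was called for 2 members, beside 4.14% of all genes. Without PD0325901 replicate 2 the number of calls was 3, and PIK3IP1, KLF6 and RBL2 were the members lost. The KLF6 and RBL2 calls were also lost in a fit of the compared groups alone, without oxozeaenol replicate 3, and without oxozeaenol replicate 4 for KLF6 or 2 for RBL2. The concentrations were those of the study, and equal inhibition by the 3 agents was not tested.

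The combinations were set beside their single agents, keeping in mind that each agent was at 50% of its single concentration. PI103 with oxozeaenol gave lower levels than PI103 alone for 5 members, beside 18.3% of all genes called (8.92% lower). These were PIK3IP1 (-1.39 ± 0.44, adjusted p = 0.028), FOXO4 (-0.96 ± 0.19, adjusted p = 5.5e-04), FOXO1 (-0.71 ± 0.11, adjusted p = 2.5e-05), CCNG2 (-0.63 ± 0.14, adjusted p = 0.0025) and RBL2 (-0.32 ± 0.10, adjusted p = 0.021). The PIK3IP1 and RBL2 calls were lost without PI103 replicate 1 or 3, or without replicate 2 or 4 of the combination, which leaves 3. In a fit of the compared groups alone 7 members were called, and the share of all genes called in that fit is not given here. FOXO3 (adjusted p = 0.013) and TXNIP (adjusted p = 0.0019) were gained there, both lower in the combination. PIK3IP1 was the 1 member with a called difference of at least 1 log2 unit, beside 3.75% of all genes. Against oxozeaenol alone 6 members were higher, beside 14.9% of all genes called (7.59% higher): TXNIP by 1.12 ± 0.23, FOXO4 by 0.94 ± 0.20, CCNG2 by 0.79 ± 0.14, FOXO1 by 0.71 ± 0.11, KLF6 by 0.53 ± 0.12 and RBL2 by 0.36 ± 0.10. TXNIP alone passed 1 log2 unit there, beside 1.93% of all genes. The RBL2 call was lost without oxozeaenol replicate 2 or without replicate 1 of the combination.

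For 8 of the 9 members the mean level with PI103 and oxozeaenol lay between those of its single agents, and PIK3IP1, at 0.215 CPM, lay below both (0.569 and 0.303 CPM). The PIK3IP1 libraries overlapped those of oxozeaenol alone, and that difference was not called (-0.42 ± 0.47, adjusted p = 0.59). Against the mean of the PI103 and oxozeaenol effects on the log2 scale, 0 members were called by edgeR's quasi-likelihood test, and 0 by DESeq2. At an unadjusted p under 0.05 there was 1, PIK3IP1, a threshold for which the share of all genes is not given here. By the adjusted p, 3.98% of all genes were called, and 0.552% with a difference of at least 1 log2 unit. The 9 differences ran from -0.90 (PIK3IP1) to 0.36 (TXNIP), with a median of 0.00340. For FOXO1 the 95% interval of that difference was -0.18 to 0.19, and for CCNG2 it was -0.17 to 0.33.

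Between PI103 with PD0325901 and PI103 alone, 2 members were called, both lower in the combination, beside 38.7% of all genes (19.9% lower): FOXO1 by -0.70 ± 0.11 (adjusted p = 1.1e-05) and BCL6 by -0.56 ± 0.18 (adjusted p = 0.014). The BCL6 call was lost without PI103 replicate 1 or 3, or without replicate 2 of the combination. For CCNG2 the difference was 0.01, with a 95% interval of -0.28 to 0.30, and for RBL2 it was -0.02, with an interval of -0.22 to 0.18. No member differed from PI103 by a called log2 unit or more, which 7.77% of all genes did. Against PD0325901 alone 4 members were higher, beside 18.1% of all genes called (8.06% higher), none of them by a log2 unit or more (2.35% of all genes). These were TXNIP (0.88 ± 0.22, adjusted p = 0.0089), CCNG2 (0.77 ± 0.14, adjusted p = 5.7e-04), FOXO1 (0.49 ± 0.11, adjusted p = 0.0026) and RBL2 (0.38 ± 0.10, adjusted p = 0.0087). The TXNIP call was lost in a fit of the compared groups alone (0.88, adjusted p = 0.065). FOXO4 was not called against PD0325901 (0.49, adjusted p = 0.060) but was with the replicate block (0.49, adjusted p = 0.035). The FOXO4 call was also made with DESeq2, without PD0325901 replicate 2 and without replicate 3 or 4 of the combination.

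CCNG2 was the 1 member that departed from the mean of PI103 and PD0325901 by the test, beside 22.0% of all genes (10.8% higher), or 2.55% with a difference of at least 1. It was 0.39 ± 0.12 above that mean (adjusted p = 0.022), in all 4 batches. Without replicate 2 of the combination no member was called, and without PD0325901 replicate 2 there were 3. Calls over all genes also varied, from 1466 to 3977 with 1 library of these groups left out, beside 3065 in the main fit.

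**Figure D3:**
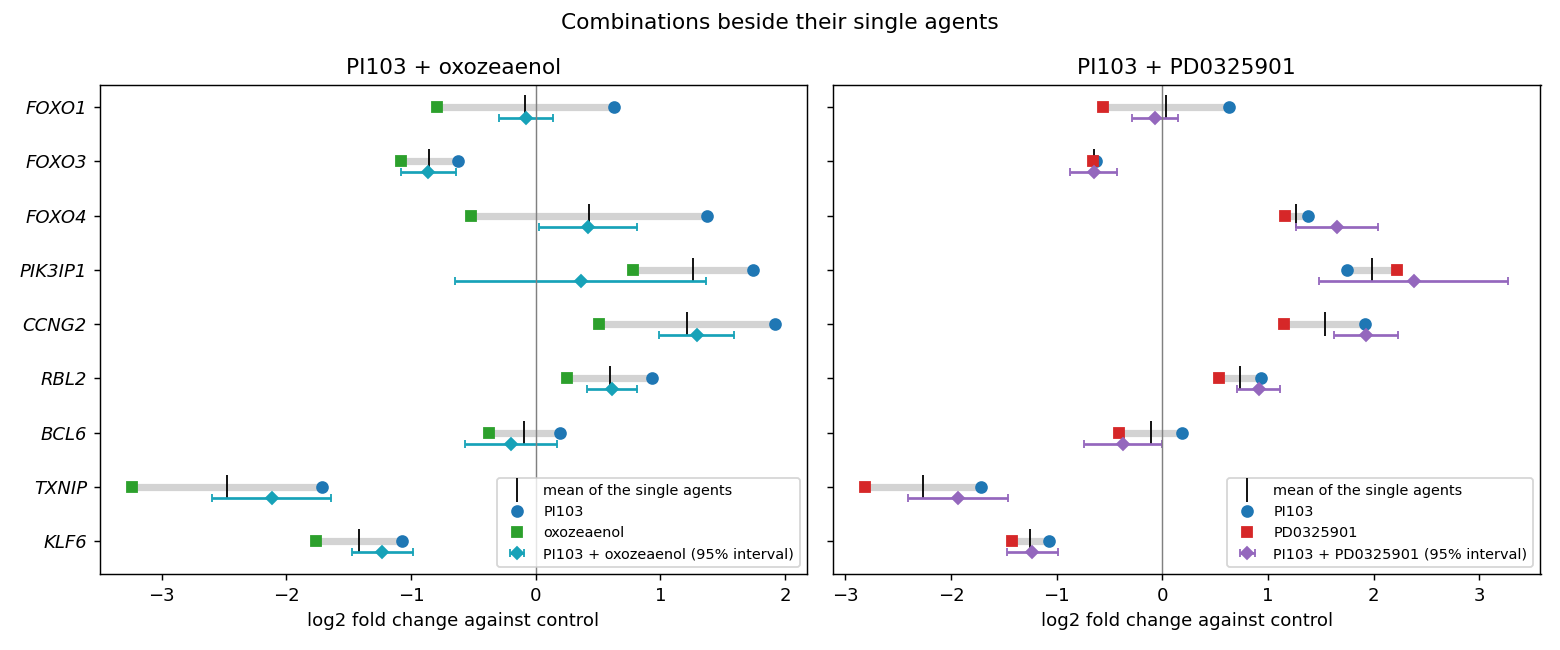
Log2 fold change against control (horizontal axes) of each member with the single agents (circle and square, joined by a grey bar), their mean (black line) and the combination (diamond with its 95% interval), for PI103 with oxozeaenol on the left and with PD0325901 on the right. The CCNG2 diamond lies at 1.29 on the left, near the mean, and at 1.93 on the right, near the PI103 circle at 1.92.

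A wider list of 57 symbols known as FOXO targets was read beside the members; 56 were in the table and 45 were tested. With PI103, 19 of the 45 rose and 13 fell, 42.2% and 28.9% of the list, beside 26.2% and 25.2% of all genes, and the median log2 change was 0.20. With PD0325901, 15 rose and 14 fell, 33.3% and 31.1% beside 28.7% and 29.9% of all genes, which is near the background, and the median was 0.03. With oxozeaenol, 10 rose and 25 fell, 22.2% and 55.6% beside 25.7% and 26.1% of all genes, and the median was -0.36. The combination with oxozeaenol gave 13 and 18, 28.9% and 40.0% beside 27.7% and 27.9% (median -0.03). The one with PD0325901 gave 22 and 11, 48.9% and 24.4% beside 32.2% and 32.6% (median 0.24). The list was put together with results of these data known, and its counts describe these genes only.

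Among the list genes that rose, YPEL3, a gene tied to growth arrest, went from 8.68 CPM in control to 40.5 CPM with PI103 (log2 change 2.22 ± 0.12, adjusted p = 3.0e-13), 15.3 CPM with oxozeaenol (0.82 ± 0.12), 28.7 CPM with PI103 and oxozeaenol (1.72) and 35.8 CPM with PI103 and PD0325901 (2.04). YPEL3 was higher with PD0325901 alone too. Its mean log2 CPM, centred on the mean of its group means, was -1.34 in control and -0.07 with PD0325901. BCL2L11, which encodes the pro-apoptotic protein BIM, rose from 16.2 to 36.4 CPM with PI103 (1.17 ± 0.11, adjusted p = 1.5e-09) and to 33.2 CPM with PI103 and oxozeaenol (1.04). CAT, the catalase gene, rose from 60.7 to 177 CPM with PD0325901 (1.54 ± 0.13, adjusted p = 2.5e-10). GLUL, which encodes glutamine synthetase, rose from 37.3 to 95.2 CPM with PD0325901 (1.35 ± 0.14) and to 122 CPM with PI103 and PD0325901 (1.72 ± 0.14).

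Other genes of the list fell steeply. SESN2, a relative of SESN3 that is also driven by the ATF4 stress response, went from 152 CPM in control to 15.8 CPM with PI103 (-3.26 ± 0.25, adjusted p = 2.1e-10), 35.0 CPM with oxozeaenol (-2.11) and 15.3 CPM with PI103 and PD0325901 (-3.31). EIF4EBP1, a translation repressor gene that ATF4 also drives, fell from 189 to 29.1 CPM with PI103 (-2.70 ± 0.23, adjusted p = 1.2e-09). PMAIP1, which encodes the pro-apoptotic protein NOXA, fell from 72.5 to 17.2 CPM with PD0325901 (-2.07 ± 0.23) and to 7.59 CPM with PI103 and PD0325901 (-3.26 ± 0.24). GADD45A, a growth-arrest and DNA-damage gene, fell from 82.2 to 21.7 CPM with PD0325901 (-1.92 ± 0.13), and KLF2, a relative of KLF6, from 22.4 to 5.19 CPM with oxozeaenol (-2.11 ± 0.17). By group means GADD45A was lower still with PI103 alone, at 15.01 CPM, and PMAIP1 was at 14.17 CPM there. The PMAIP1 libraries of PI103 and PD0325901 overlapped, and those of GADD45A did not. With oxozeaenol the GADD45A and PMAIP1 means were 23.55 and 25.48 CPM, also under control.

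**Figure D4:**
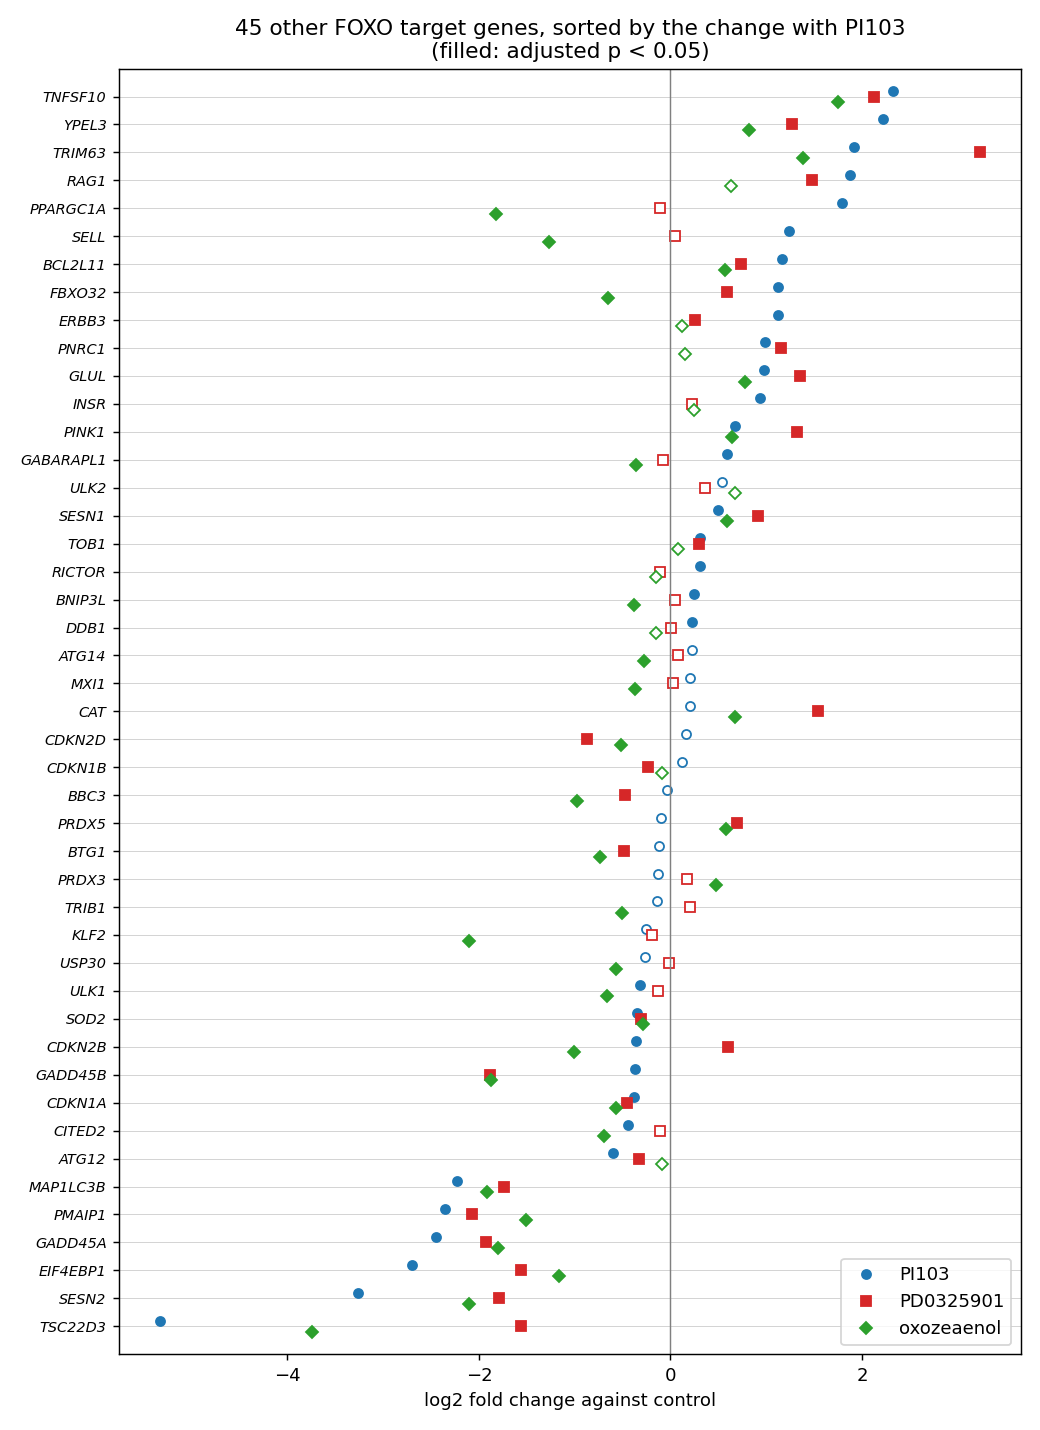
Log2 fold change against control (horizontal axis) of the 45 tested genes of the wider FOXO target list (vertical axis, sorted by the change with PI103), for PI103 (circles), PD0325901 (squares) and oxozeaenol (diamonds). Filled symbols have an adjusted p under 0.05. The changes with PI103 reach 2.22 for YPEL3 and -3.26 for SESN2, and 25 of the diamonds are filled left of 0.

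Of 36 listed regulators of FOXO proteins, 35 were in the table and 34 were tested. With PI103, 6 rose and 8 fell, 17.6% and 23.5% of the list beside 26.2% and 25.2% of all genes. With PD0325901 the counts were 8 and 10 (23.5% and 29.4%, beside 28.7% and 29.9%), and with oxozeaenol 8 and 11 (23.5% and 32.4%, beside 25.7% and 26.1%). PI103 joined by oxozeaenol gave 10 and 14 (29.4% and 41.2%, beside 27.7% and 27.9%), and PI103 joined by PD0325901 gave 6 and 16 (17.6% and 47.1%, beside 32.2% and 32.6%). With the single agents these shares were thus near or below those of all genes, apart from somewhat more falls with oxozeaenol. Their median log2 changes ran from -0.20 to 0.02, beside -0.36 to 0.24 for the wider target list. SGK1, a kinase that phosphorylates FOXO3, rose from 28.0 to 46.5 CPM with PI103 (0.73 ± 0.11) and to 65.3 CPM with PD0325901 (1.22 ± 0.11, adjusted p = 1.4e-09). PHLPP1, a phosphatase gene that acts on AKT, rose from 16.3 to 28.9 CPM with PI103 (0.83 ± 0.11, adjusted p = 1.1e-06). SFN, the epithelial 14-3-3 gene, rose from 107 to 171 CPM with PD0325901 (0.68) and to 156 CPM with oxozeaenol (0.55). SKP2, which marks FOXO1 for degradation, rose to 79.1 CPM with oxozeaenol from 55.0 CPM (0.52), and CDK2 rose with PI103 and oxozeaenol (0.78).

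PRMT1, a methyltransferase that modifies FOXO1, fell with all 5 treatments, from 544 CPM to as low as 215 CPM with PI103 and PD0325901 (-1.34 ± 0.13, adjusted p = 2.1e-09). CSNK1A1, a casein kinase gene, fell from 347 to 201 CPM with PI103 (-0.79 ± 0.08, adjusted p = 5.4e-09) and to 187 CPM with PI103 and oxozeaenol (-0.90). MDM2, a ubiquitin ligase gene, fell from 367 to 253 CPM with PD0325901 (-0.53 ± 0.10). The list of genes that FOXO proteins are known to repress held 3. CCND1, the cyclin D1 gene, was at 891 CPM in control and fell with PD0325901 (-1.57 ± 0.16, adjusted p = 7.5e-09), oxozeaenol (-0.97) and PI103 with PD0325901 (-1.17). PI103 alone gave 0.26 (adjusted p = 0.17) and its combination with oxozeaenol -0.33 (adjusted p = 0.076), neither of them called. FOXM1, a proliferation factor gene, was called only with PD0325901 (-0.44 ± 0.18, adjusted p = 0.041), and CCND2 was not tested, with at most 5 counts in a library.

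The genes whose pattern over the 6 group means was most like that of a member were found by the root mean square (RMS) difference of centred log2 CPM among 10039 or 10040 tested genes of at least 5 CPM. For CCNG2 they were REPS2 (RMS difference 0.127) and YPEL3 (0.133), the latter itself on the wider target list. For RBL2 they were FAM21C (0.0624) and WDTC1 (0.0710), and for FOXO1 TRNP1 (0.0974) and ABHD14B (0.114). FOXO3 was followed most closely by LOC100499467 (0.0353) and ZNF501 (0.0774), KLF6 by ZXDB (0.128) and NOP14-AS1 (0.152), and BCL6 by LOC100128338 (0.0374) and HNRNPA3 (0.0389). TXNIP, FOXO4 and PIK3IP1 had no neighbour as close: the nearest were JHDM1D (0.296) and KLF4 (0.340), TGM2 (0.240) and CHI3L1 (0.242), and SLC40A1 (0.255) and C20orf151 (0.282). A member with a wide range leaves more room for such differences, and TXNIP ranged over 3.28 log2 units while BCL6 ranged over 0.55.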

How the data were processed

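RNA was sequenced from 24 cultures of AGS cells in 6 groups. Per the labels' protocols, libraries were made from 0.8 µg of total RNA with an Illumina stranded mRNA kit. The authors deposited a table of read counts, whole numbers by gene symbol, and per the submitters' processing notes the genome build was GRCh38. The aligner, the counting program, its annotation and its use of strand are not given in the sources used here. The table ends with 5 tallies that name no gene, left out of library sizes and tests: reads with no feature were 4.24% to 8.57% per library, ambiguous reads 1.57% to 2.01% and reads that aligned to several places 4.64% to 6.06%, so genes with near-identical copies are counted low. Library depth is given with the results. Replicates of a group differed by more than counting noise in all 36 pairs.

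Groups were taken from the titles, because the treatment field of later replicates numbers the compound names upward. Genes kept by filterByExpr were normalised with TMM factors and modelled in edgeR 4.0.16 (R 4.3.3; robust glmQLFit, 1 coefficient per group over all 24 libraries), and 14 contrasts were tested by its quasi-likelihood F test (two-sided), adjusted by Benjamini-Hochberg over 13947 genes. The SE is the size of the log2 change over the root of F. On simulated counts for PI103 against control over 13947 genes, 96% of genes changed by 1 log2 unit in either direction were called, and 0.0884% of unchanged genes. The changed genes, 50 for each size and direction, were drawn from those above 1 CPM on average, and no batch effect was simulated. These shares therefore do not cover scarcer genes such as PIK3IP1, nor data in which many genes change. Positions, exon lengths and overlaps came from GENCODE 29 and promoters from RefSeq GRCh38.p14. Alternatives were DESeq2 1.42.0 and its size factors, no filter, a fit of the compared groups alone, a minimum log2 change of 1, leaving out each library and the replicate number as a block. The labels give that number as the batch, so it pairs samples: deviations of same-numbered libraries correlated by 0.12 on average (60 pairs, 47 positive) against -0.04 for different numbers (180 pairs).

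The members and gene lists were chosen with earlier results of these data known. Besides all members, the text names per list and treatment the 2 largest rises and falls among called genes of at least 5 CPM (examples of them where treatments repeat), the repressed genes, and the 2 genes most like each member. FOXO3B, AKTIP and DUSP6 are given for reference.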

Additional observations from a re-analysis of the deposited data

Results flagged for a closer look

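Over the 9 tested members in 6 groups, 54 sets of 4 libraries were looked at, and 3 held a library far from the other 3 by Dixon's ratio. Chance flags about 1 in 20 such sets. PIK3IP1 was at 1.58 CPM in replicate 2 of PI103 with PD0325901, where the others held 0.564 to 0.727 CPM, and without that library the log2 change against control was 1.95 (adjusted p = 3.2e-04). CCNG2 was at 41.9 CPM in PD0325901 replicate 2, where the others held 26.2 to 28.8 CPM, and without it the change was 1.00 (adjusted p = 3.3e-07). TXNIP was at 117 CPM in PD0325901 replicate 1, where the others held 40.6 to 52.9 CPM, and without it the change was -3.22 (adjusted p = 8.3e-13).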

How the results depend on the processing

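Against control, 563 of 585 values of single members under the alternatives kept their direction and their side of the threshold, 11 lost the call, 10 gained it and 1 turned: FOXO1 with PI103 and PD0325901, from -0.07 to 0.0088 without control replicate 3 (-0.13 to 0.0088 over libraries left out). In the other comparisons 1030 of 1125 values did so, 29 lost the call, 19 gained it and 47 turned, all of the last for members that were not called. With a log2 change of at least 1 also required, the members called fell to 5 with PI103, 5 with PD0325901, 3 with oxozeaenol and 3 with PI103 and oxozeaenol. Under that rule 2 remained called between PI103 and PD0325901, 4 between PI103 and oxozeaenol, 2 between PD0325901 and oxozeaenol, 1 for PI103 with oxozeaenol against PI103, 1 against oxozeaenol, and 0 for PI103 with PD0325901 against PI103, against PD0325901 and against their mean. With 1 library left out the calls ranged from 3 to 7 between PD0325901 and oxozeaenol, from 3 to 5 for PI103 with oxozeaenol against PI103, from 1 to 2 for PI103 with PD0325901 against PI103, and from 0 to 3 against the mean of PI103 and PD0325901. Calls over all genes in those fits ranged from 2385 to 4282, 1866 to 2259, 3927 to 5308 and 1466 to 3977, in the same order. With the replicate block the calls against control were 8, 9, 7, 6 and 8 in place of 8, 8, 7, 5 and 7. Calls over all tested genes also rose with the block in each of these comparisons, to 7848, 8750, 7833, 8375 and 9604. Without the block they were 7162, 8176, 7232, 7757 and 9039, in the same order. The added member calls thus came with a general rise in calls. The calls of single members that the block changed are given beside them in the report, and it changed no other. The low counts of PIK3IP1, and of SESN3 above all, limit what their values can show.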
